A study of Mus musculus with 275 samples.

Results

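The HS-CC animals come from a heterogeneous stock made by intercrossing the founder strains of the Collaborative Cross, which include both classical laboratory strains and wild-derived strains, and they were bred in opposite directions for the catalepsy that haloperidol causes. The High line is the responsive one and the Low line the non-responsive one. Striatal RNA of each animal was hybridised to a single Illumina bead array, and all arrays labelled HS-CC were taken, 48 High and 48 Low, out of 275 arrays in the series. A single High array was left out by a rule on similarity (a mean correlation with the other HS-CC arrays below 0.7), so 95 arrays were compared, 47 High and 48 Low. That array had a mean correlation of 0.643 and 10.97% of its probes above background. The nearest array kept stood at 0.934, and the median of those kept was 0.978.

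Each HS-CC line is the outcome of 1 selection experiment, a few generations long, and the animals within a line are related. Differences that selection made and differences that arose by drift in the small breeding populations therefore cannot be told apart, and the p-values below measure the spread between animals only. The labels give no sex for HS-CC animals, and whether the animals profiled had themselves received haloperidol is not stated in the labels or the methods. Eif2s3y, a gene on the Y chromosome, fell into a low and a high class with no animal in between over 1.29 log2 units, with 18 of 47 High and 23 of 48 Low animals in the high class.

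Haloperidol is an antipsychotic that blocks D2-like dopamine receptors. In rodents it causes catalepsy, a failure to correct an imposed posture, through the striatum, which receives the cortical input to the basal ganglia. Most striatal neurons are GABAergic spiny projection neurons, which carry D1 receptors in the direct pathway and D2 receptors in the indirect pathway. Whole striatal tissue was profiled, so fewer cells of a type and less RNA per cell cannot be told apart.

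Of 15114 expressed probes, 301 were higher (1.99%) and 386 lower (2.55%) in the High line than in the Low line at a false discovery rate of 0.1, by limma with Benjamini-Hochberg adjustment, 4.55% in all. These called probes belonged to 606 genes, with 35 probes that carry no gene symbol. Expressed here means brighter, on 25 percent of arrays or more, than percentile 95 of the 1341 probes for olfactory, taste and vomeronasal receptors on the same array. Most differences were small, with a median size of 0.13 on the log2 scale. A size of 0.3 was reached by 58 called probes (23 higher and 35 lower in High) and a size of 0.5 by 17 (7 and 10), while 1 probe, of Csrp1, exceeded 1. For no probe did the ranges of the lines fail to overlap (0 of 15114).

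The animals carry numbers, and numbers of a line lie together in 12 runs, 6 High and 6 Low, of 3 to 15 animals each. Fitted with the run as a random block, 422 probes were called, all of them also called without the block. Each run holds 1 line, so a positive correlation within runs weakens calls, and this overlap is no separate support. The fit used 1 correlation for all probes, 0.0198, so probes that vary more between runs are corrected too little. The means of the 6 High runs lay wholly to one side of the means of the 6 Low runs for 90 called probes (13.1%), against 0.688% of all expressed probes. Called probes were chosen for a difference between these same animals, so a higher share among them follows from the choice. When the range of animal numbers was cut into 3 parts, 630 called probes had the same sign in every part, as did 4535 of all 15114 expressed probes. The parts again hold the animals that gave the calls, so neither comparison is a replication.

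**Figure D1:**
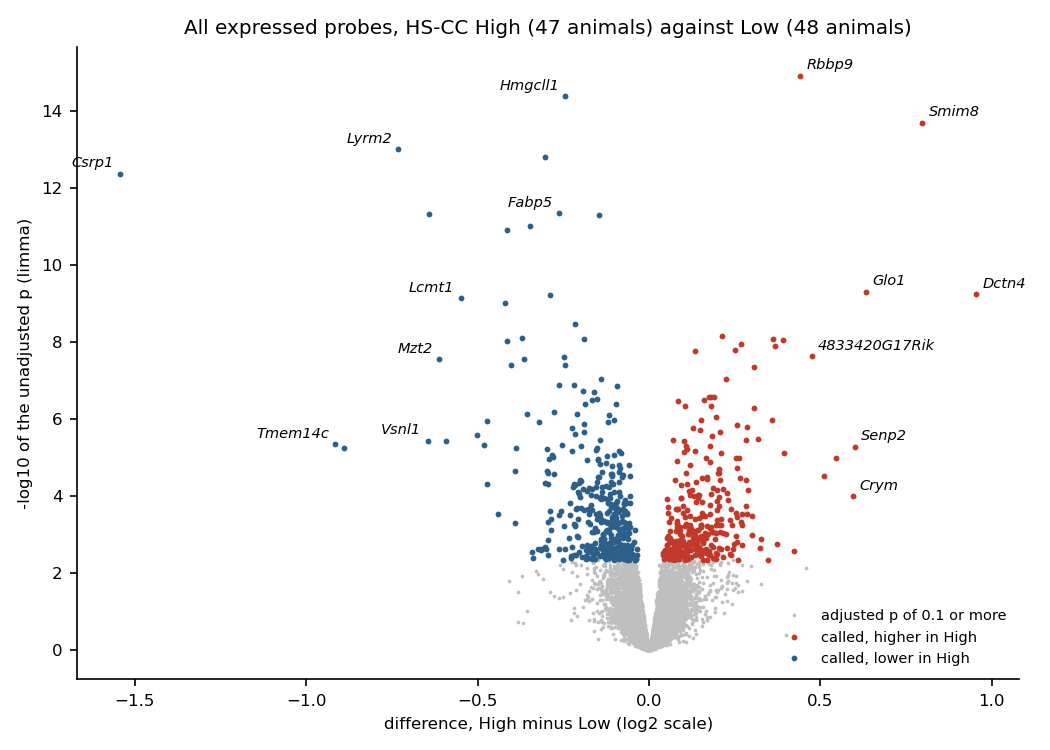
Difference between the HS-CC lines (x axis, High minus Low on the log2 scale) against the unadjusted limma p (y axis, −log10) for the 15114 expressed probes, with called probes in colour. The 386 called probes lower in High reach further from 0 than the 301 higher ones, with Csrp1 alone beyond a size of 1, and Hmgcll1 and Rbbp9 have among the smallest p-values at modest sizes.

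The transcripts with the largest falls in the High line included some of the cytoskeleton and of neuronal signalling. Csrp1 encodes a LIM-domain protein that associates with actin. Its level ran from 9.38 over a median of 9.84 to 12.78 in High animals and from 9.62 over 11.91 to 13.11 in Low animals. The values formed a lower and an upper class across an empty gap of 1.22, and 13 of 47 High but 44 of 48 Low animals lay in the upper class. The difference was −1.54 (SE 0.18, limma adjusted p = 1.05e-09). Vsnl1, a calcium sensor of neurons, ran from 11.57 over 12.69 to 14.31 in High and from 11.68 over 13.29 to 14.77 in Low animals. The lines overlapped over nearly the whole range, and the difference was −0.65 (SE 0.13, adjusted p = 0.00067).

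Lcmt1, which methylates the catalytic subunit of protein phosphatase 2A, had a median of 10.22 in High (9.80 to 11.32) and 11.10 in Low animals (9.59 to 11.31), a difference of −0.55 (SE 0.08, limma adjusted p = 7.08e-07). Ntrk2, the main receptor for brain-derived neurotrophic factor, had medians of 10.20 in High (9.15 to 11.55) and 10.56 in Low animals (9.27 to 11.58), a difference of −0.47 (SE 0.11, adjusted p = 0.0045). For both genes the calls rest on a single probe. The 2 other Lcmt1 probes lay at −0.05 and −0.01 and the 2 other Ntrk2 probes at 0.05 and −0.03, and none of these 4 passed. Mzt2, a component of the gamma-tubulin complex, fell by 0.61 (SE 0.10) and Prkag2, a regulatory subunit of AMP-activated kinase, by 0.50 (SE 0.10).

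Several transcripts of mitochondria, lipids and acidic organelles were also lower. Tmem14c, a mitochondrial membrane protein needed for haem synthesis, ran from 9.10 over 11.14 to 12.05 in High and from 9.13 over 11.36 to 12.19 in Low animals. An empty gap of 1.49 split the animals, with 28 of 47 High and 44 of 48 Low animals above it, and the difference was −0.92 (SE 0.19, limma adjusted p = 0.0008). A second Tmem14c probe was also called, at −0.28, and another stood at 0.03 (adjusted p = 0.738). Abhd16a, a phosphatidylserine lipase, ran from 9.15 over 9.45 to 11.36 in High and from 9.29 over 11.17 to 12.26 in Low animals. Its gap of 1.17 had 14 High and 33 Low animals above it, and the difference was −0.89 (SE 0.19, adjusted p = 0.000941).

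Lyrm2, a mitochondrial protein of the LYR family, was called on each of its 3 probes, at −0.73, −0.41 and −0.19. On the first it ran from 9.47 over 10.27 to 11.18 in High and from 10.21 over 10.93 to 11.41 in Low animals, so that 23 of 47 High animals lay below every Low animal (SE 0.08, limma adjusted p = 3.62e-10). Vdac2, a channel of the outer mitochondrial membrane, fell by 0.47 (SE 0.09). Atp6v1d, a subunit of the proton pump of lysosomes and synaptic vesicles, ran from 12.80 over 13.70 to 14.30 in High and from 13.50 over 14.12 to 14.42 in Low animals. It fell by 0.42 (SE 0.06, adjusted p = 8.91e-07), with 11 High animals below the Low range.

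Of transcripts with nuclear and RNA-related roles, Thumpd1, an adaptor for tRNA acetylation, ran from 9.09 over 10.61 to 11.52 in High and from 10.37 over 11.18 to 11.56 in Low animals. All 48 Low animals but 37 of 47 High animals lay above an empty gap of 1.17 and above background, and the difference was −0.59 (SE 0.12, limma adjusted p = 0.00067). Mak16, a factor of ribosome assembly, fell by 0.41 on 1 probe (SE 0.07), while its other probe stood at −0.06 (adjusted p = 0.286). Uap1, which makes the sugar donor UDP-N-acetylglucosamine, fell by 0.48 (SE 0.10).

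Among the transcripts higher in the High line, Glo1, the glyoxalase that detoxifies methylglyoxal, set more High animals outside the Low range than any other gene named here. It ran from 11.95 over 13.11 to 14.10 in High and from 11.81 over 12.29 to 12.94 in Low animals. Of the 47 High animals 27 lay above every Low animal, and the remainder spread across the Low range. The difference was 0.63 (SE 0.09, limma adjusted p = 6.05e-07). Rbbp9, a serine hydrolase that binds the retinoblastoma protein, had the smallest p of all probes. It ran from 10.76 over 11.39 to 11.79 in High and from 10.52 over 10.93 to 11.39 in Low animals, with 24 High animals above the Low range, a difference of 0.44 (SE 0.05, adjusted p = 1.81e-11).

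Membrane traffic gave further examples. Dctn4, a subunit of dynactin, the cofactor of the dynein motor, ran from 11.15 over 12.10 to 12.50 in High and from 9.51 over 11.30 to 12.49 in Low animals. All 47 High and 31 of 48 Low animals lay above an empty gap of 0.97, and the difference was 0.95 (SE 0.14, limma adjusted p = 6.41e-07). Snx3, a sorting nexin that works with retromer, rose by 0.54 on 1 probe (SE 0.12), while its other probe stood at 0.01 (adjusted p = 0.951). Rragd, a Rag GTPase that recruits mTORC1 to lysosomes, rose by 0.37 (SE 0.06).

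Senp2, a protease that removes SUMO, ran from 10.54 over 11.47 to 11.72 in High and from 9.15 over 10.85 to 11.70 in Low animals. The 8 animals below its gap of 1.33 were all of the Low line, and the difference was 0.60 (SE 0.12, limma adjusted p = 0.000867). Crym, which binds thyroid hormone, ran from 11.69 over 12.45 to 13.47 in High and from 9.66 over 11.94 to 13.28 in Low animals, a difference of 0.59 (SE 0.15, adjusted p = 0.0076). Pole4, a subunit of DNA polymerase epsilon, rose by 0.51 (SE 0.12), Mtrex, a helicase of the nuclear exosome, by 0.36 (SE 0.06), and Rnase4, a secreted ribonuclease, by 0.39 (SE 0.08). Cops8, a subunit of the COP9 signalosome, rose by 0.37 (SE 0.12, adjusted p = 0.0567), a call that was lost when the outlying High array was kept (adjusted p = 0.157).

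Smim8, a small membrane protein, ran from 9.50 over 10.75 to 11.64 in High and from 9.39 over 9.73 to 11.06 in Low animals. The difference was 0.80 (SE 0.09, limma adjusted p = 9.92e-11), and 44 High but 16 Low animals lay above the widest gap. Its 2 other probes lay at −0.06 and −0.07 and did not pass. Differences were smaller but precise for Hmgcll1, a relative of the ketogenic enzyme HMG-CoA lyase, at −0.24 (SE 0.03, adjusted p = 2.99e-11), and for Fabp5, a fatty acid carrier, at −0.26 (SE 0.03, adjusted p = 8.5e-09). For each of these, 22 of 47 High animals lay below the Low range. The run means of the lines did not overlap for Csrp1, Smim8, Rbbp9, Hmgcll1, Fabp5, Atp6v1d, Mzt2, Mak16, Pole4 or the first Dctn4 and Lyrm2 probes. They did overlap for Glo1, Lcmt1, Mtrex, Tmem14c, Abhd16a, Vsnl1, Thumpd1, Senp2 and Crym. The same was true of Ntrk2, Snx3, Uap1, Vdac2, Rragd, Rnase4 and Cops8.

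**Figure D2:**
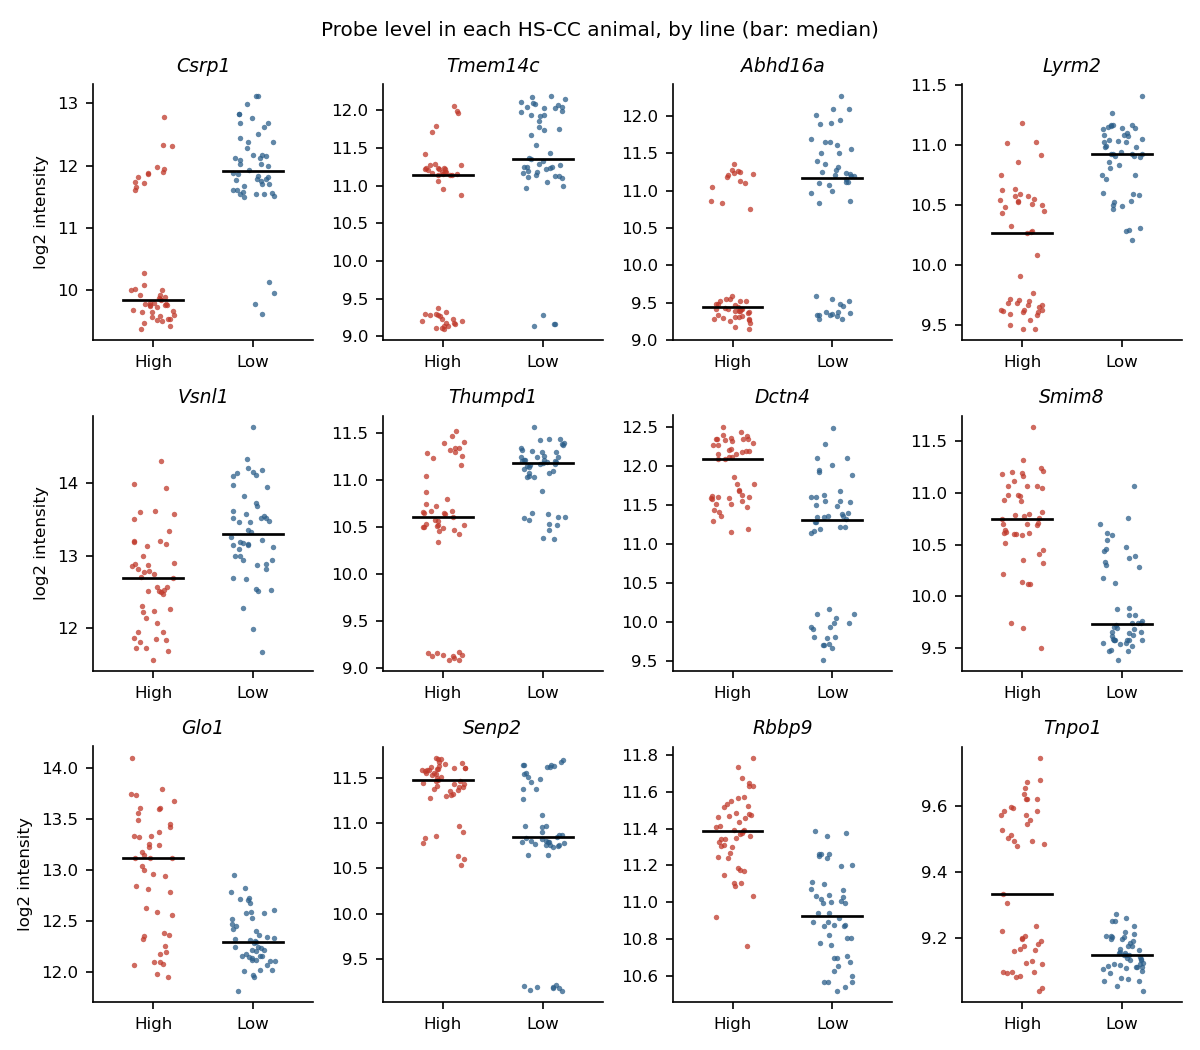
Level of 12 probes (y axis, log2 intensity) in each of the 47 High and 48 Low HS-CC animals, 1 point per animal, with a bar at the median of each line. Csrp1, Tmem14c, Abhd16a, Thumpd1, Dctn4 and Senp2 fall into classes separated by empty gaps of 0.97 to 1.49, and the lines differ in how many animals each class holds, as with the 13 High and 44 Low animals in the upper class of Csrp1.

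Where a gene had several probes, they often did not move together. Of 234 genes with 2 or more expressed probes and at least 1 call, all probes had the same sign in 150 and all were called in 27. At least 2 probes were called in 44 genes, with the same sign in 34 and opposite signs in 10. Rars2, the mitochondrial arginyl-tRNA synthetase, was lower on 3 of 3 probes, as Lyrm2 was, and Gpr34, a lysophospholipid receptor of microglia, was higher on both of its probes (0.27 and 0.22).

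Opposite calls included lead genes. A further Dctn4 probe was lower in High (−0.16, SE 0.03, limma adjusted p = 7.21e-05) where the first was higher. Me1, the cytosolic malic enzyme, gave 0.32 (SE 0.06) and −0.30 (SE 0.10), and Bcap29, a chaperone of the endoplasmic reticulum, 0.39 (SE 0.06) and −0.14 (SE 0.04). Tkt, the transketolase of the pentose phosphate pathway, gave 0.13, −0.18 and an uncalled 0.02. The negative call of Tkt was lost with the run as a random block (adjusted p = 0.181), with the outlying array kept (0.253) and under several other settings, and that of Me1 with the outlying array kept (0.281). For such genes no single direction can be given. Probe sequences were not analysed here, and whether founder alleles differ under these probes was not tested. The same holds for the genes above that were called on 1 probe alone or that have only 1 expressed probe.

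**Figure D3:**
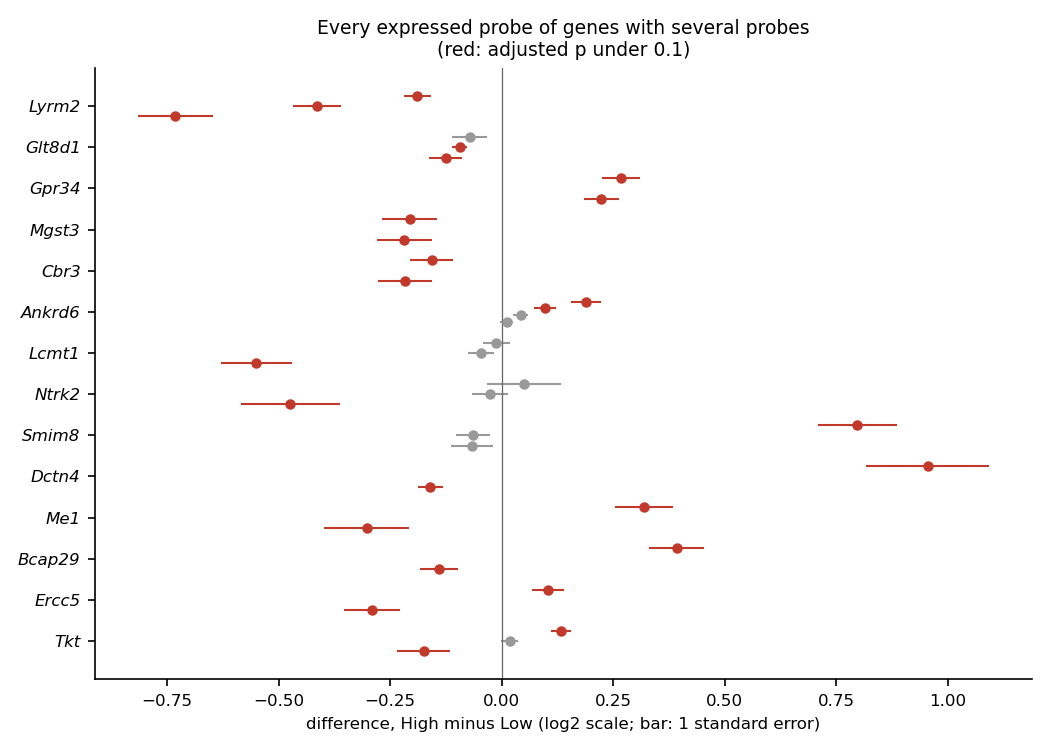
Difference between the HS-CC lines (x axis, High minus Low on the log2 scale, bars 1 standard error) for every expressed probe of genes with several probes, with called probes in red. The 3 probes of Lyrm2 lie on one side, 1 probe of Lcmt1, Ntrk2 and Smim8 stands apart from the others, and Dctn4, Me1, Bcap29, Ercc5 and Tkt have called probes on both sides of 0.

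Neither Drd2, a direct target of haloperidol, nor Drd1 passed the test, and the other D2-like receptor genes, Drd3 and Drd4, were not expressed by the rule used here and were not tested. Drd2, the D2 receptor, ran from 9.73 over 10.88 to 11.58 in High and from 9.49 over 10.98 to 12.19 in Low animals, a difference of −0.03 (SE 0.08, limma adjusted p = 0.936). Drd1, the D1 receptor, ran from 11.83 over 12.84 to 13.62 in High and from 9.72 over 12.88 to 13.82 in Low animals, a difference of 0.02 (SE 0.10, adjusted p = 0.979). The sign of both changed between settings. Of 8 expressed probes for dopamine receptors and dopamine handling 1 was called (12.5%, beside 4.55% of all expressed probes). This was Maob, the monoamine oxidase that also degrades dopamine. It ran from 9.48 over 10.15 to 10.63 in High and from 9.32 over 9.96 to 10.61 in Low animals, a difference of 0.28 (SE 0.06, adjusted p = 0.000669).

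Markers of the spiny neurons and their signalling seldom differed, beside 4.55% of all expressed probes. Drd1 and Drd2, which define the spiny neurons of the striatum, were above background on all 47 High and all 48 Low arrays. The spiny neuron list had a mean per animal with a median of 11.47 in High and 11.46 in Low animals. Called were 1 of 10 probes of direct pathway genes (Sfxn1, a mitochondrial serine carrier, −0.14), 0 of 8 of indirect pathway genes and 1 of 32 of genes of both pathways. The last was Arpp19, a phosphoprotein that inhibits protein phosphatase 2A, which is also the 1 called of 63 probes for G protein, cAMP and DARPP-32 signalling. Arpp19 ran from 11.53 over 12.22 to 12.59 in High and from 11.98 over 12.43 to 12.81 in Low animals, a difference of −0.22 (SE 0.04, limma adjusted p = 5.04e-05). The median difference of these 4 lists lay between −0.0012 and 0.014, against −0.00072 over all expressed probes. The call of Sfxn1 was lost with the run as a random block (adjusted p = 0.116).

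Receptors and synapses gave 0 calls by limma among phosphodiesterases (21 probes), GABA receptor subunits (8), glutamate receptors (19), postsynaptic scaffolds (21), opioid and cannabinoid genes (20), synaptic vesicle genes (35) and sodium and potassium channels (34). At an unadjusted p under 0.05 these lists held 2, 0, 1, 1, 2, 2 and 1 probes, beside 13.2% of all expressed probes. Cholinergic interneuron genes had 0 of 15 called, none of them with an unadjusted p under 0.05 either. Among GABA interneuron genes Sst, the neuropeptide somatostatin, was higher by 0.20 (SE 0.06, adjusted p = 0.0657), the 1 call of 13. That of Sst was lost with the run as a random block (adjusted p = 0.122). Of 23 neurotrophin probes 2 were called (8.70%, beside 4.55% of all expressed probes). Both were lower, Ntrk2 and Ntrk3 (−0.16, SE 0.04), the latter on 1 of 4 probes.

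Immediate early genes, which neurons induce upon activity, were mostly higher in the High line, in 13 of 16 probes, with a median difference of 0.086. Over all expressed probes 48.9% were higher. The test was passed by 2 probes (12.5%, beside 4.55% of all expressed probes). These were Dusp1, a phosphatase of MAP kinases (0.22, SE 0.07, limma adjusted p = 0.0879), and the transcription factor Klf2 (0.08, SE 0.03, adjusted p = 0.0703). Fos and Arc had differences of 0.24 (SE 0.09, adjusted p = 0.168) and 0.25 (SE 0.11, adjusted p = 0.225). Both calls were lost with the run as a random block (adjusted p = 0.191 and 0.151), and in the lowest of the 3 parts of the animal numbers both differences were negative.

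**Figure D4:**
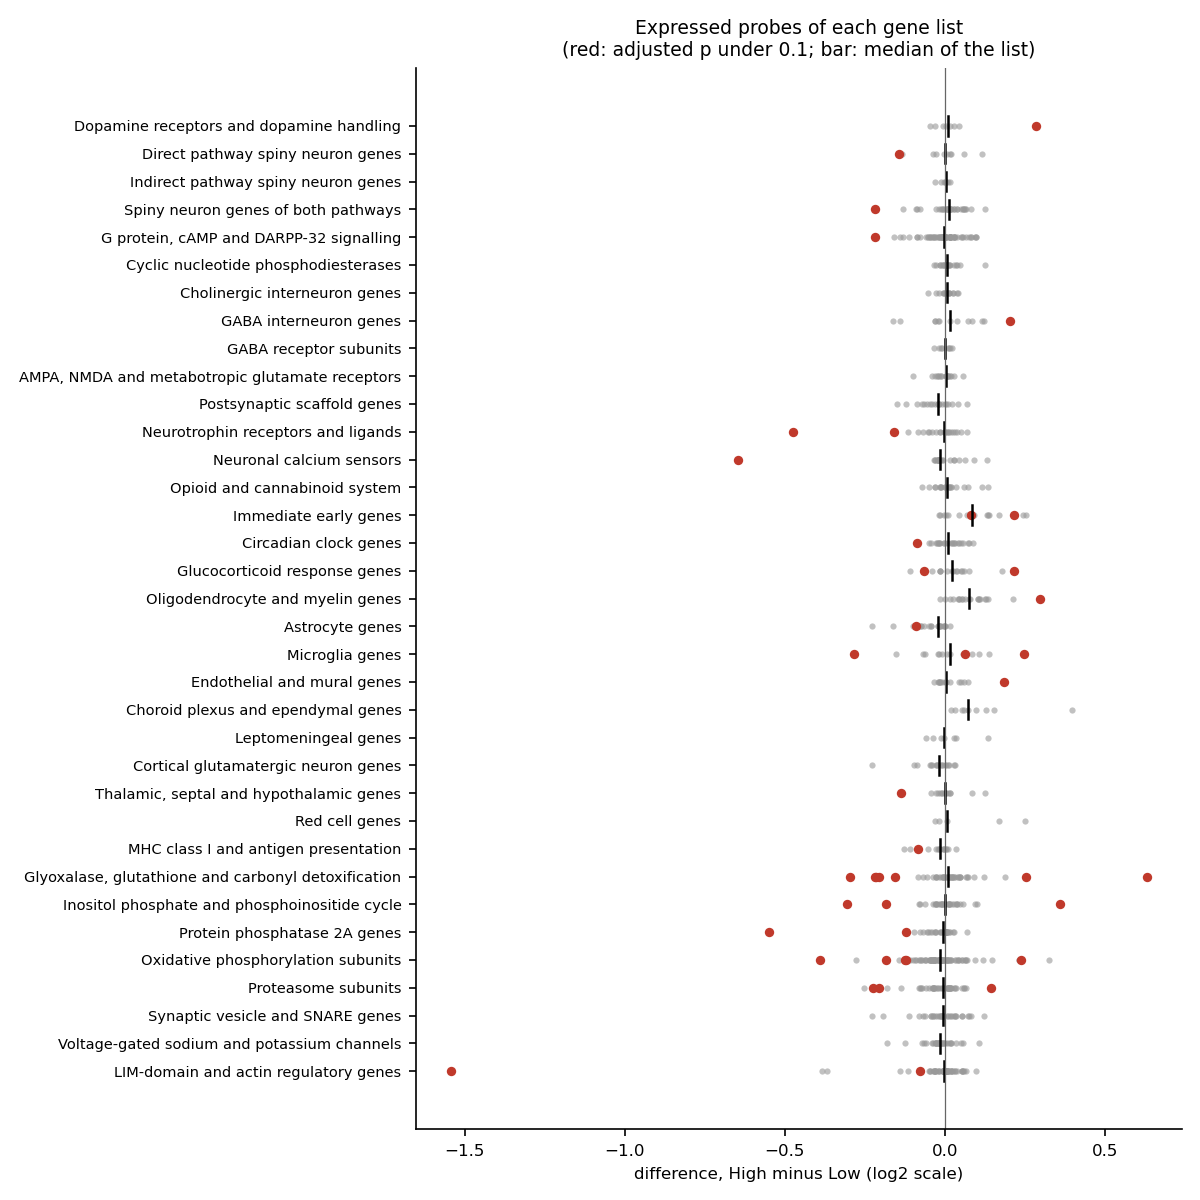
Difference between the HS-CC lines (x axis, High minus Low on the log2 scale) for the expressed probes of each gene list (rows), with called probes in red and a bar at the median of each list. Most list medians lie close to 0, those of the oligodendrocyte (0.075), choroid plexus (0.074) and immediate early genes (0.086) lie above it, and the called probes are few and scattered, with Csrp1 the farthest.

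Glial markers gave small differences. The share called was 4.76% of oligodendrocyte and 4.35% of astrocyte probes, close to the 4.55% over all expressed probes. At an unadjusted limma p under 0.05 these lists held 5 of 21 and 8 of 23 probes, beside 13.2% of all expressed probes. Of 21 oligodendrocyte and myelin probes 19 were higher in High, with a median of 0.075, and 1 was called. This was Cldn11, a tight junction protein of myelin, which ran from 13.79 over 14.68 to 15.77 in High and from 13.44 over 14.31 to 15.26 in Low animals, a difference of 0.30 (SE 0.08, limma adjusted p = 0.0179). Of 23 astrocyte probes 3 were higher and 20 were not, with a median of −0.022, and 1 was called, for Aldh1l1, a folate enzyme (−0.09, SE 0.03, adjusted p = 0.0387). With the mean levels of both lists as covariates, a choice made after seeing the data, the differences of Cldn11 and Aldh1l1 were 0.15 and −0.045 and no longer called (adjusted p = 0.246 and 0.382). Both genes belong to the lists that served as covariates, so part of their own signal was removed by construction. That fit called 341 probes higher and 346 lower, and 481 of its calls were shared with the fit without covariates.

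Microglial genes had 3 of 17 probes called, in both directions, beside 4.55% of all expressed probes. An unadjusted limma p under 0.05 was reached by 8 of the 17, beside 13.2% of all expressed probes. C1qc, a chain of complement C1q, ran from 9.80 over 10.32 to 10.93 in High and from 9.91 over 10.66 to 11.30 in Low animals, a difference of −0.28 (SE 0.06, limma adjusted p = 0.00123). Ctss, the lysosomal protease cathepsin S, was higher (0.25, SE 0.08, adjusted p = 0.0583), and so was the microglial receptor Siglech (0.06, SE 0.02, adjusted p = 0.0859). Keeping the outlying array ended both of the latter calls (adjusted p = 0.103 and 0.287), and the run as a random block ended that of Siglech (adjusted p = 0.163).

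Markers of neighbouring tissue gave few calls. Choroid plexus and ependymal genes were higher in High on 9 of 9 probes, with a median of 0.074 and 0 called. Over all expressed probes 48.9% were higher. Their mean per animal ranged from 9.28 to 11.53 in High and from 9.25 to 10.68 in Low animals, and Ttr, the choroid plexus carrier of thyroid hormone, differed by 0.40 with an SE of 0.48. None passed among cortical glutamatergic neuron genes (0 of 18), leptomeningeal genes (0 of 7) and red cell genes (0 of 5). At an unadjusted limma p under 0.05 they held 0, 0 and 1, beside 13.2% of all expressed probes. The share called over all expressed probes was 4.55%, so in lists this short 0 calls lies close to it. Of 15 thalamic, septal and hypothalamic probes 1 was called (6.67%), lower in High. With the choroid plexus and cortical levels as covariates 328 probes were higher and 428 lower.

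In glyoxalase, glutathione and carbonyl detoxification 7 of 45 probes were called (15.6%), beside 4.55% of all expressed probes. Of the called probes 2 were higher and 5 lower, and the list median was 0.012. Beside Glo1, the glutathione transferase Gstm5 was higher, at 0.25 (SE 0.07, limma adjusted p = 0.016). Aldh1a1, which makes retinoic acid and marks some dopamine neurons, was lower, at −0.29 (SE 0.07, adjusted p = 0.0028). Mgst3, a microsomal glutathione transferase, was lower on both called probes (−0.22 and −0.21), and so was the carbonyl reductase Cbr3 (−0.22 and −0.16). Glo1 was in view when this list was written, so its share of calls is no independent result.

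The phosphoinositide cycle had 3 calls in 34 probes (8.82%, beside 4.55% of all expressed probes). Impa1, the inositol monophosphatase that lithium inhibits, ran from 9.61 over 10.29 to 10.71 in High and from 9.16 over 9.92 to 10.56 in Low animals, a difference of 0.36 (SE 0.07, limma adjusted p = 0.00026). The lipid kinases Pip4k2a (−0.30, SE 0.07) and Pip5k1a (−0.18, SE 0.06) were lower, the latter not with the run as a random block (adjusted p = 0.144). Protein phosphatase 2A genes had 2 calls in 30 probes (6.67%), both lower. These were Lcmt1 and the regulatory subunit Ppp2r5e (−0.12, SE 0.04), the latter not called with that block (adjusted p = 0.102). The other Ppp2r5e probe stood at 0.07 and was not called.

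Oxidative phosphorylation subunits had 5 calls in 87 probes (5.75%, close to the 4.55% over all expressed probes) and a median of −0.014. Lower were the ATP synthase genes Atp5e (−0.39, SE 0.08), Atp5g1 (−0.12) and Atp5j (−0.18) and the succinate dehydrogenase subunit Sdhb (−0.12, SE 0.03). Higher was the ATP synthase gene Atp5pb (0.24). Atp5j was called on 1 of 3 probes, and its uncalled probes lay at −0.02 and 0.12. With the run as a random block Atp5g1, Atp5j and Atp5pb were no longer called (limma adjusted p = 0.118, 0.157 and 0.153). Of 45 proteasome probes 3 were called, Psmc5 higher (0.14) and Psma3 (−0.21) and Psmb7 (−0.22) lower, of which Psmb7 was not called with that block (adjusted p = 0.114). Apart from Csrp1, Cfl1, the actin-severing cofilin, was lower among LIM-domain and actin genes (−0.08, SE 0.03), the 2 calls of 58. The call of Cfl1 was lost with that block too (adjusted p = 0.184) and with the 3 parts of the animal numbers as a fixed block (adjusted p = 0.118).

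The share of expressed probes called, 4.55% in all, was by chromosome highest on chromosomes 3 (7.68%), 8 (7.49%), 6 (7.20%), 16 (7.13%) and 4 (6.80%) and lowest on chromosomes 15 (1.84%) and 7 (2.41%). On chromosome 11, 40 of 53 called probes were lower in High, and on the X chromosome 16 of 18 were higher, beside 43.8% higher among all called probes. Differences between chromosomes were not tested. The X chromosome count was again 16 of 18 with the class of Eif2s3y as a covariate and 12 of 14 with the run as a random block.

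Neighbouring genes were sometimes called together. In the order of 10289 expressed genes, 138 of the 606 called genes stood next to another called gene, in 62 runs of which 13 held 3 or more. How many would stand together in a random order was not worked out, so whether called genes group more than that was not tested. The longest, on chromosome 3, held 4 genes. Of these the tRNA methyltransferase Trmt10a (0.16), the formaldehyde-clearing Adh5 (0.13) and the methionine aminopeptidase Metap1 (0.18) were higher, and the cap-binding factor Eif4e (−0.18) was lower. Adh5 was called on 1 of its 2 expressed probes, and the other stood at 0.0078 (limma adjusted p = 0.971). Metap1 was not called with the outlying array kept (adjusted p = 0.157), nor Eif4e with the run as a random block (adjusted p = 0.111). On chromosome 4 Lyrm2, the ankyrin repeat gene Ankrd6 (0.19 and 0.10 on its called probes) and Rragd lay side by side, with Lyrm2 lower and the others higher. A run on chromosome 2 held Pip4k2a (−0.30), Armc3 (0.09) and Msrb2, a methionine sulfoxide reductase (−0.37). On the X chromosome Fam3a (0.14), Ikbkg, the regulatory subunit of the IκB kinase (0.13), and Gab3 (0.08) were each higher on 1 called probe. The other Ikbkg probe stood at 0.024 and the other Gab3 probes at 0.067 and −0.012, none of them called. The Gab3 call was lost with the 3 parts of the animal numbers as a fixed block (limma adjusted p = 0.141). The X-linked neighbours Gpr34 and Maob were also higher.

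The animals of a line also differed from each other to an unequal extent. By limma on the distance of each value from its line's median, 46 probes had an unequal spread (0.304%), larger in High for 14 (0.0926%) and smaller in High for 32 (0.212%). Of these 33 were also called in the mean. Tnpo1, a nuclear import receptor, ran from 9.04 over 9.33 to 9.75 in High but only from 9.04 over 9.15 to 9.27 in Low animals. It was above background on 25 of 47 High but 3 of 48 Low arrays, so the small Low spread is that of a probe at background and gives no measure of its own. The same holds in the other direction for Chmp1a, a component of the ESCRT machinery, above background on 7 High and 28 Low arrays, with a range of 9.03 to 9.56 against 9.04 to 10.28. Probes above background on all 95 arrays are free of this limit. Among them Glo1 varied more in High animals (SD 0.59 and 0.26, adjusted p = 0.00176), and Fam3a (0.092 and 0.20, adjusted p = 0.000143) and Ikbkg (0.074 and 0.21, adjusted p = 0.00037) varied less.

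The F2 selection, bred in the same way from an intercross, had 41 High and 42 Low animals. The difference between its lines and that between the HS-CC lines was tested as a contrast in 1 limma fit of both selections. Of 14544 probes expressed in both, 436 had a different line effect (3%), above that of F2 in 216 (1.49%) and below it in 220 (1.51%). Of these, 293 were called between the HS-CC lines. The effect was larger in HS-CC for 321 of the 436 and larger in F2 for 115. For 88 of the 436 the effects were opposite, each more than 2 SE from 0. A test of the difference favours opposite effects, so this count is no separate result.

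Some leading effects had the same direction in F2 and no called difference, as in Thumpd1 (−0.59 in HS-CC and −1.14 in F2, limma adjusted p = 0.157) and Prkag2 (−0.51 and −0.34, adjusted p = 0.787). Others differed. Csrp1 gave −1.53 in HS-CC and −0.05 in F2, Smim8 0.80 and −0.07, and Dctn4 0.94 and 0.01. In Ppp1r13b, which binds p53, the F2 effect was the larger (0.06 in HS-CC and −0.44 in F2). Opposite effects were found for Insig2, a regulator of sterol synthesis (0.23 in HS-CC and −0.25 in F2, limma adjusted p = 6.82e-05), for the kinesin Kif21a (0.15 and −0.24) and for Tada1, a subunit of the SAGA complex (0.18 and −0.24). Fgfr1op2 was lower in HS-CC and higher in F2 on its called probe (−0.43 and 0.40, adjusted p = 0.00246). The phosphoinositide kinase Pip4k2a and both Mgst3 probes were lower in HS-CC and higher in F2. The selections had been normalized apart before deposit, and the contrast compares line effects rather than levels.

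**Figure D5:**
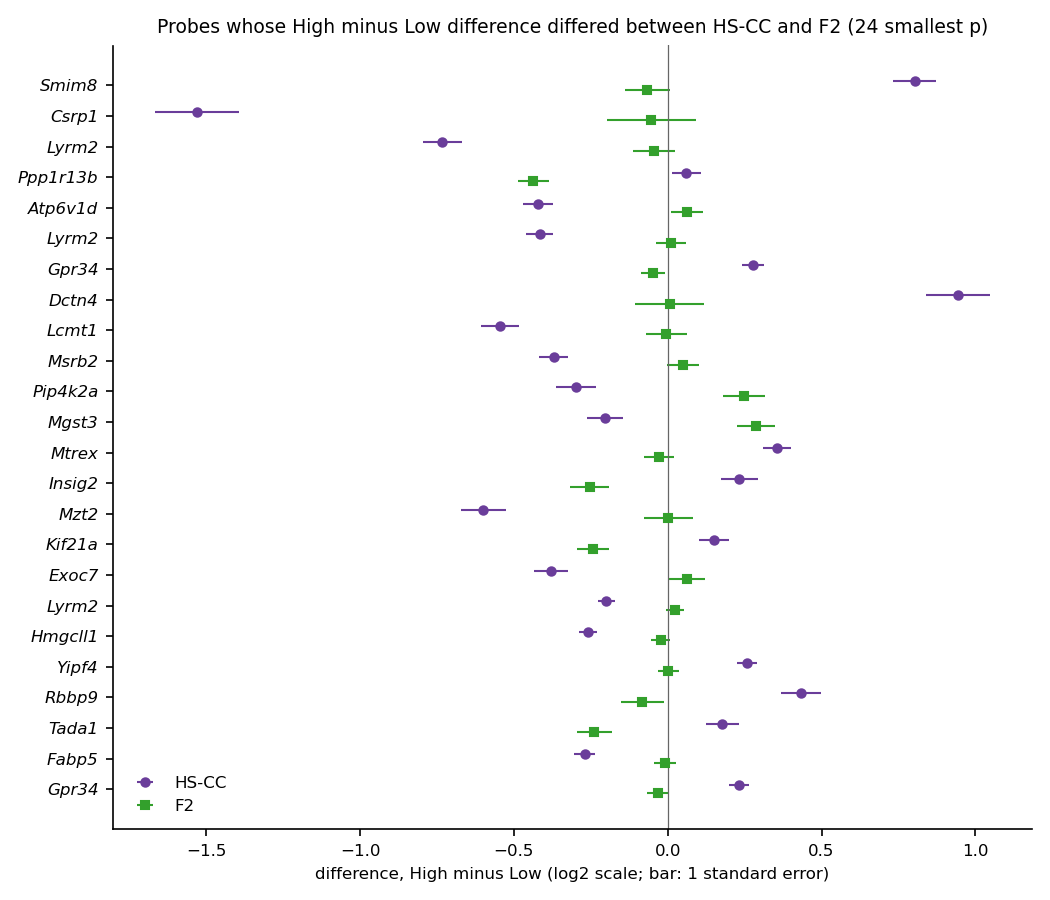
Difference between the lines (x axis, High minus Low on the log2 scale, bars 1 standard error) in HS-CC (circles) and F2 (squares) for the 24 named probes with the smallest p for the difference of the effects. Most, such as Csrp1, Smim8 and Dctn4, lie far from 0 in HS-CC and near 0 in F2, while Ppp1r13b lies far from 0 in F2 alone and Pip4k2a, Mgst3, Insig2, Kif21a and Tada1 lie on opposite sides.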

How the data were processed

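Striatal RNA of HS-CC High and Low animals was measured on Illumina bead arrays, 1 per animal. The authors processed them with lumi and quantile normalized them. The deposited values are on a log2 scale (8.87 to 16.1 in HS-CC). The labels and methods do not name the type of log transformation. A variance-stabilizing one would compress differences of dim probes. Repeating the normalization within HS-CC moved no value by more than 9.49e-05. The percentage of probes above background had a median of 54.2 in High and 53.8 in Low arrays, and the number of arrays limits the precision.

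Groups followed the sample labels. Lines were compared with limma 3.58.1 (lmFit and eBayes, two-sided) in R 4.3.3, with Benjamini-Hochberg adjustment over the 15114 expressed probes and a threshold of 0.1. Spread was tested on absolute deviations from the line median. The contrast with F2 followed quantile normalization across both selections. HS4 entered no test, and its arrays served only in the alternative that quantile normalized the 3 selections together. Of 25697 probes, 23978 had 1 gene symbol and 1719 none. Chromosomes and gene order came from a gene table of a single build (23962 probes matched by Entrez identifier), and no coordinates are given. The fits were tested on simulated data. Figures used matplotlib 3.10.9.

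Named genes were drawn from the 15 largest called differences each way, the 10 smallest p-values, list members with the smallest p, genes with opposite calls, neighbouring calls, and the leading probes for spread and for the difference from F2. Of the largest differences, Fgfr1op2 (−0.44, limma adjusted p = 0.0161), Gm5796 (0.42, adjusted p = 0.0733) and 4833420G17Rik, which was higher, were not set out with the others. Gm5796 was not called with the run as a random block (adjusted p = 0.137). Rars2, Ttr, Insig2, Kif21a and Tada1 were chosen after their values were seen. The 36 gene lists and these rules were chosen with earlier results of these data known. Alternatives covered outlying arrays, filters, thresholds, variance models, normalization, animal numbering, sex and tissue composition.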

Additional observations from a re-analysis of the deposited data

Results flagged for a closer look

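The line effect differed between HS-CC and F2 by the test of the difference itself (limma contrast, HS-CC minus F2 on the log2 scale), and the probes with the smallest p were these. Smim8 had a difference of 0.87 (SE 0.10, adjusted p = 3.9e-11), Csrp1 of −1.48 (SE 0.20, adjusted p = 2.78e-08) and Ppp1r13b of 0.50 (SE 0.07, adjusted p = 2.78e-08). For the first Lyrm2 probe it was −0.69 (SE 0.09, adjusted p = 2.78e-08) and for the second −0.43 (SE 0.07, adjusted p = 2.66e-06). Atp6v1d stood at −0.48 (SE 0.07, adjusted p = 3.46e-07), Gpr34 at 0.33 (SE 0.05, adjusted p = 7.65e-06) and a probe with no gene symbol, ILMN_2732190, at −0.58 (SE 0.09, adjusted p = 2.74e-06).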

How the results depend on the processing

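The number of called probes (301 higher and 386 lower) moved by more than 1.5 times under 3 alternatives. These were 331 (181 and 150) with probes above background on every array, 430 (185 and 245) at an adjusted p under 0.05 and 422 (181 and 241) with the run of animal numbers as a random block. With the outlying High array kept, 516 were called and the higher ones fell to 180. Under the other alternatives the total ran from 529 without a filter on dim probes to 823 with array weights. Probes with unequal spread numbered 46, against 27 with the outlying array kept and 26 at 0.05. Probes that differed from F2 numbered 436, against 287 at 0.05. No paired analysis was possible because the animal numbers of the High and Low lines belong to different animals. Of 108 named called probes, 19 lost the call with the run as a block, 13 with the outlying array kept, 17 without the filter and 21 at 0.05. The call was lost for 12 with the 3 parts of the animal numbers as a fixed block. With oligodendrocyte and astrocyte levels as covariates it was lost for 15. The sign turned for Drd1 with the part of the animal-number range (of 3) as a fixed block (−0.020) and with oligodendrocyte and astrocyte levels as covariates (−0.062). Within part 1 of that range it turned for Fgfr1op2 (0.0069), Klf2 (−0.025), Dusp1 (−0.10) and Drd2 (0.16). In part 2 it turned for Trpc4 (0.087), Psmb7 (0.029), Akr7a5 (−0.0076), Drd1 (−0.14) and Drd2 (0.016), and in part 3 for Ctss (−0.00021) and Drd1 (−0.18). The causes were not tested. Each part holds 10 to 22 animals per line, fewer than the whole.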
